A study of Bos taurus with 6 samples.

Results

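The family of miR-148 and miR-152 was followed in small RNA libraries from the livers of Angus steers kept on grass or on grain. Its members bta-miR-148a, bta-miR-148b and bta-miR-152 were found by name, and they are 3 of the 1030 mature miRNAs listed for each library. The livers came from Wye Angus steers, a closed herd, and each library came from 1 animal. The 3 grass-fed steers ate alfalfa, hay or grass pasture and were 21 months old, and the 3 grain-fed steers ate a ration with corn silage, shelled corn, soybean and minerals and were 14 months old. Diet and age cannot be told apart in these groups. The libraries were made from RNA of whole liver tissue, so that fewer cells of a type and less RNA per cell cannot be told apart either.

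A miRNA guides a silencing complex to messenger RNAs that pair with its seed, a short stretch near its 5′ end, and miRNAs with the same seed can act on the same messages. The members of this family share their seed and come from separate genes. In other mammals miR-148a is one of the most abundant miRNAs of the hepatocyte, where it is known to act on the message of the cholesterol exporter ABCA1. It is also known from the acinar cells of the pancreas. miR-148a and miR-152 are known to act on the message of the DNA methyltransferase DNMT1. In the ARS-UCD2.0 assembly, a newer one than the ARS-UCD1.2 used for mapping, RefSeq places MIR148B inside COPZ1 and MIR152 inside COPZ2, which encode related coatomer subunits. MIR148A overlaps no protein-coding gene there and lies between NFE2L3 and NPVF.

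The number of miRNA counts differed between the groups in the same way as diet, with 3824592 to 6133960 counts in grass-fed and 464875 to 892929 counts in grain-fed libraries. All 3 members passed the count filter (above 2 counts in at least 2 libraries), as did 456 of the 1030 listed miRNAs. Counts are given below as a percent of the miRNA counts of the library or as CPM, the count out of 1e+06 miRNA counts, after scaling by TMM or by the total count alone. TMM is the method of edgeR that evens out libraries over the bulk of their miRNAs. Its factors were 0.936, 0.692 and 0.996 in the grass-fed and 1.15, 1.11 and 1.21 in the grain-fed libraries, lowest in grass-fed replicate 2. Against total counts, TMM therefore raised the levels of every grass-fed library and lowered those of every grain-fed library. Values given in threes follow the order of replicates 1, 2 and 3.

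bta-miR-148a made up nearly all of the family. The grass-fed steers had 724684, 1166123 and 569720 counts, which were 14.3%, 19.0% and 14.9% of their miRNA counts. The grain-fed steers had 150789, 96027 and 76955 counts, or 16.9%, 15.1% and 16.6%. The highest share was that of grass-fed replicate 2, and the other grass-fed shares lay below all grain-fed shares. The mean share was 16.1% ± 2.57 (SD, n = 3) in grass-fed and 16.2% ± 0.937 (SD, n = 3) in grain-fed liver. bta-miR-148a ranked second in 5 libraries, behind bta-miR-122, the hepatocyte miRNA that leads most liver libraries. In grain-fed replicate 3 it ranked first.

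bta-miR-152 was the second member in every library. The grass-fed steers had 27337, 27179 and 25834 counts of it, or 0.538%, 0.443% and 0.675% of the miRNA counts. The grain-fed steers had 6035, 4540 and 3288 counts, or 0.676%, 0.715% and 0.707%. Every grain-fed share was above the highest grass-fed share, and the closest pair, grass-fed replicate 3 and grain-fed replicate 1, lay inside each other's exact 95% binomial interval, 0.667% to 0.684% and 0.659% to 0.693%. Such intervals cover counting error only. Over all tested miRNAs, the shares did not overlap between the diets for 33.3%.

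bta-miR-148b was the scarcest of the members. Counts of it were 5071, 6933 and 4418 in the grass-fed steers, or 0.0999%, 0.113% and 0.116%. The grain-fed steers had 1060, 596 and 645 counts, or 0.119%, 0.0939% and 0.139%. The lowest and the highest share both belonged to grain-fed libraries, and their exact 95% binomial intervals, 0.0865% to 0.102% and 0.128% to 0.150%, did not meet.

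**Figure D1:**
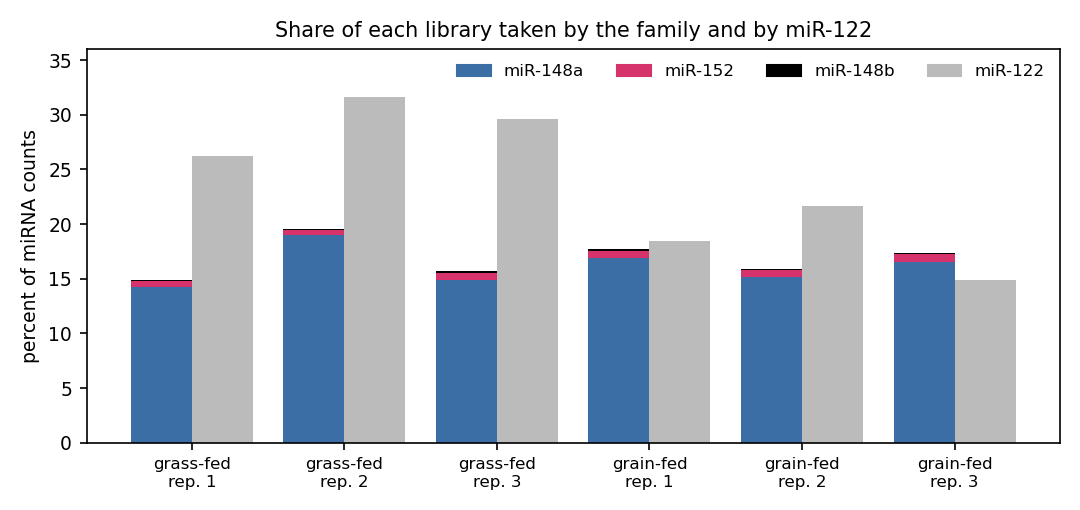
Percent of the miRNA counts of each library taken by bta-miR-148a, bta-miR-152 and bta-miR-148b, stacked, beside the percent taken by bta-miR-122. The family took 14.9% to 19.6% in grass-fed and 15.9% to 17.7% in grain-fed libraries, nearly all of it bta-miR-148a, while bta-miR-122 took 26.2% to 31.7% and 14.9% to 21.6%.

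The order bta-miR-148a, bta-miR-152, bta-miR-148b was the same in all 6 libraries, in counts per mature miRNA. Within the family, bta-miR-148a took 95.9% ± 1.12 (SD, n = 3) of the counts in grass-fed and 95.2% ± 0.295 (SD, n = 3) in grain-fed liver. The share of bta-miR-152 was 3.39% ± 1.04 and 4.13% ± 0.337 (SD, n = 3 each), lowest in grass-fed replicate 2 at 2.26%. That of bta-miR-148b was 0.661% ± 0.0797 and 0.686% ± 0.105 (SD, n = 3 each). Among the listed miRNAs, bta-miR-152 ranked between 20 and 23 and bta-miR-148b between 41 and 55. How well each miRNA was captured by the library kit was not measured, so these ratios compare counts and not molecules.

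Each member is listed with 1 precursor and 1 mature form, so that no read of the opposite arm is counted for it. The files also list bta-miR-148c and bta-miR-148d, whose genes overlap MIR152 and MIR148A in RefSeq's annotation. Both had 0 counts in all 6 libraries. Taking 3 counts per library as the floor, this allowed a TMM-scaled level of up to 0.632 to 0.787 CPM in grass-fed and of up to 2.92 to 5.32 CPM in grain-fed libraries, far under the lowest level of bta-miR-148b, 844 CPM. Whether reads of these loci were listed under the members could not be read from the counts.

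After TMM scaling, bta-miR-148a stood at 152574, 274796 and 149528 CPM in the grass-fed steers. The grain-fed steers stood at 146868, 135958 and 136519 CPM. The ranges did not overlap, but the lowest grass-fed and the highest grain-fed library were close together, and grass-fed replicate 2 stood far above the rest. Ranges did not overlap for 32.9% of all tested miRNAs. By total counts alone the ranges of bta-miR-148a overlapped. The fitted level was 1.38 times the grain-fed one. The log2 fold change was 0.46 (standard error 0.22, 95% interval -0.026 to 0.95), and its FDR, from edgeR's quasi-likelihood test and adjusted by Benjamini-Hochberg over every tested miRNA, was 0.212. bta-miR-148a therefore did not pass FDR 0.1, and the interval still allows a rise of up to 1.93-fold.

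On the same scale bta-miR-148b stood at 1068, 1634 and 1160 CPM in the grass-fed steers and at 1032, 844 and 1144 CPM in the grain-fed steers. The groups overlapped, and grass-fed replicate 2, the library with the lowest TMM factor, was again the highest. By total counts alone it stood at 1130 CPM, under grain-fed replicates 1 and 3 at 1187 and 1387 CPM. With TMM the log2 fold change was 0.35 (standard error 0.23, 95% interval -0.15 to 0.86), with FDR = 0.359 in edgeR. On this scale bta-miR-152 was the steadiest member. The grass-fed steers stood at 5755, 6405 and 6780 CPM, the grain-fed steers at 5878, 6428 and 5833 CPM, and the groups overlapped. Its log2 fold change was 0.062 (standard error 0.18, 95% interval -0.33 to 0.45), with FDR = 0.877 in edgeR, so that levels from 0.797-fold to 1.37-fold remain within the interval.

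Thus 0 of the 3 members passed FDR 0.1 in edgeR, against 19.1% of all 456 tested miRNAs, and 0 of the 3 had an unadjusted p below 0.05, against 115 miRNAs. DESeq2, which called 20% of all tested miRNAs, and limma-voom, which called 20.6%, also called 0 of the 3. Over all tested miRNAs the median log2 fold change was 0.13, and 66.2% of them lay below bta-miR-148a, 60.3% below bta-miR-148b and 45.2% below bta-miR-152.

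**Figure D2:**
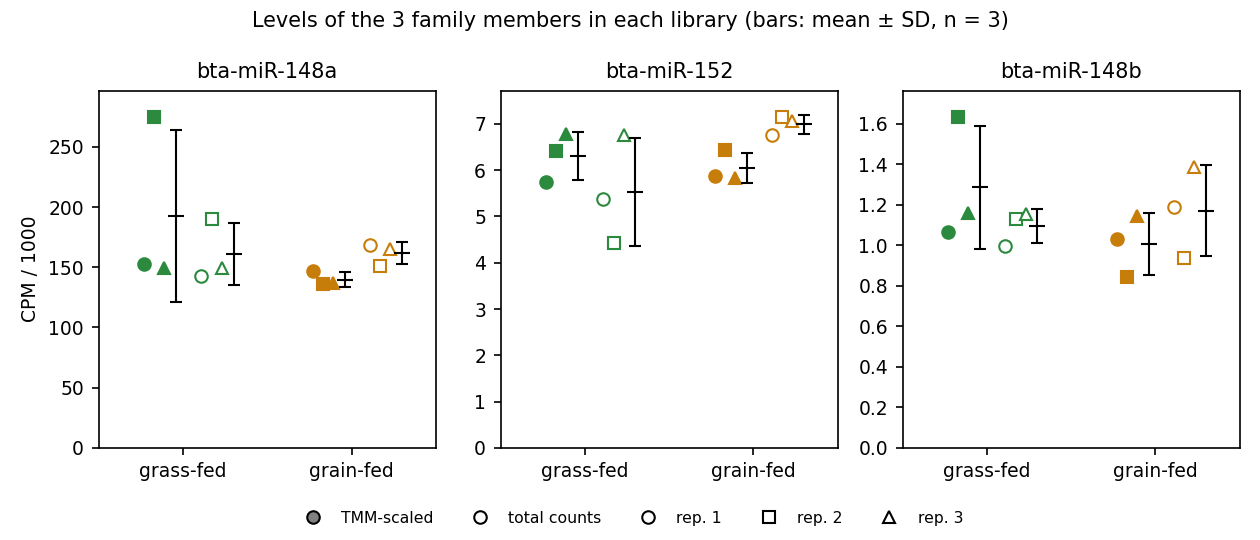
Level of each member in CPM, by library, with filled points scaled by TMM and open points by total count alone (bars: mean ± SD, n = 3; y axes start at 0). The filled square of grass-fed replicate 2 is the highest bta-miR-148a and bta-miR-148b value, at 274796 and 1634 CPM, and the open points of bta-miR-152 are lower in grass-fed liver, with means of 5523 and 6994 CPM. For bta-miR-148b the open square of grass-fed replicate 2 is at 1130 CPM, and the highest open point is grain-fed replicate 3 at 1387 CPM.

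The value of bta-miR-148a rested on grass-fed replicate 2. Without that library its log2 fold change was 0.11 (standard error 0.10, FDR = 0.565 in edgeR), and that of bta-miR-148b was 0.15 (FDR = 0.685). Leaving out grain-fed replicate 2 also brought bta-miR-148b to 0.15 (FDR = 0.785), and without any other single library the values of both members were between 0.31 and 0.51. For bta-miR-152 the values without 1 library lay between -0.079 and 0.057.

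The scale of the libraries mattered as much. With total counts alone the log2 fold changes were -0.011 for bta-miR-148a, -0.095 for bta-miR-148b and -0.34 for bta-miR-152, and 0 of the 3 passed FDR 0.1 in edgeR, where 16.2% of all miRNAs did. bta-miR-152 then stood at 5385, 4431 and 6755 CPM in the grass-fed steers and at 6759, 7150 and 7073 CPM in the grain-fed steers, ranges that met without overlapping, as they did not overlap for 33.3% of all tested miRNAs. With upper-quartile scaling bta-miR-148a (0.62, FDR = 0.0391) and bta-miR-148b (0.53, FDR = 0.0775) both passed FDR 0.1 in edgeR, bta-miR-152 (0.25, FDR = 0.335) did not, and 27.2% of all miRNAs passed. These scalings moved the median of all tested miRNAs from 0.13 to -0.29 with total counts and to 0.31 with upper quartiles. Relative to that median, bta-miR-148a was higher by 0.33 with TMM, 0.28 with total counts and 0.30 with upper quartiles. On the same relative scale bta-miR-148b was at 0.22, 0.19 and 0.22, and bta-miR-152 at -0.072, -0.053 and -0.059. Each of these scalings applies 1 factor per library to all miRNAs, so the distance to the median is nearly fixed in advance. The likeness of these values over the scalings is therefore no separate support for them. Without grass-fed replicate 2 and with TMM, the relative values were 0.017 for bta-miR-148a, 0.058 for bta-miR-148b and -0.041 for bta-miR-152.

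**Figure D3:**
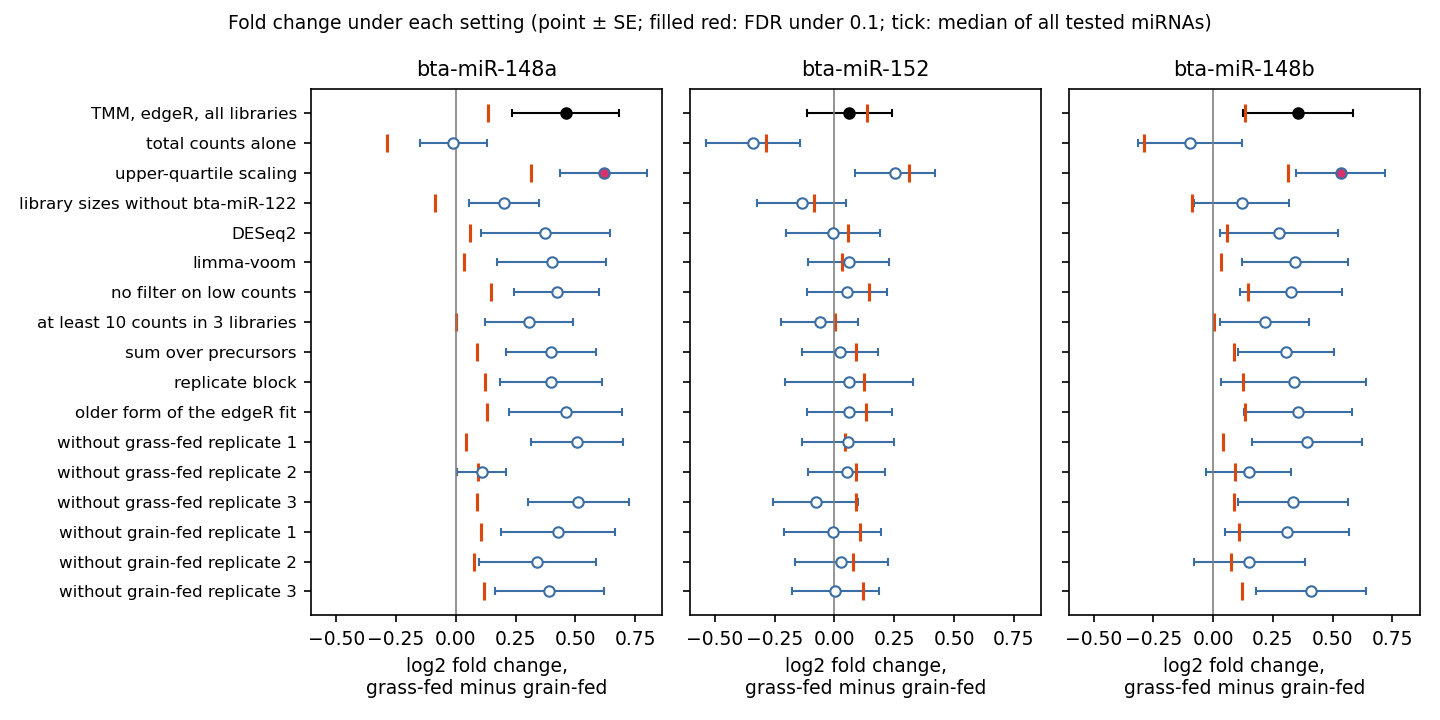
log2 fold change of each member, grass-fed minus grain-fed, under each setting (point ± standard error; red fill marks FDR under 0.1; the orange tick is the median of all tested miRNAs in that setting). bta-miR-148a lies between -0.011 and 0.62 and drops to 0.11 without grass-fed replicate 2, while bta-miR-152 lies nearest to the median of all miRNAs in 16 of the 17 settings. The settings reuse the same libraries and are not independent of each other.

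The members also differed in how much the animals of a group varied. The SD of TMM-scaled log2 CPM within groups was 0.36 for bta-miR-148a, 0.28 for bta-miR-148b and 0.10 for bta-miR-152. The median SD over the 133 miRNAs with a mean of at least 100 CPM was 0.27. Of these 133 miRNAs, 5 varied less than bta-miR-152, 70 less than bta-miR-148b and 100 less than bta-miR-148a. The spread of bta-miR-148a came from grass-fed liver, where its SD was 0.50 with replicate 2 included, against 0.063 in grain-fed liver. This order of spread depended on the scaling. By total counts alone the grass-fed levels of bta-miR-148a, bta-miR-148b and bta-miR-152 were 160604 ± 25741, 1095 ± 84.0 and 5523 ± 1168 CPM (SD, n = 3 each). Relative to the mean, bta-miR-152 then varied most of the members in grass-fed liver and least in grain-fed liver.

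Ratios of counts within a library do not depend on the scaling, and they were used to ask whether the members moved apart between the diets. The ratio of bta-miR-148a to bta-miR-148b was 143, 168 and 129 in the grass-fed steers and 142, 161 and 119 in the grain-fed steers. The groups covered the same range, and the log2 ratio differed by 0.060 (standard error 0.17, exact two-sided permutation p = 0.7, adjusted p = 0.7 over the 6 ratios tested). The 9 differences between a grass-fed and a grain-fed library ran from -0.32 to 0.50.

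The ratio of bta-miR-148a to bta-miR-152 was 26.5, 42.9 and 22.1 in the grass-fed steers and 24.99, 21.2 and 23.4 in the grain-fed steers. Grass-fed replicate 2 was far above all other libraries, which lay together. The log2 ratio was higher by 0.34 in grass-fed liver (standard error 0.29, exact permutation p = 0.4, adjusted p = 0.6), with single differences from -0.18 to 1.02, and by 0.064 without that library. The ratio of bta-miR-152 to bta-miR-148b was 5.39, 3.92 and 5.85 in the grass-fed steers and 5.69, 7.62 and 5.10 in the grain-fed steers, a log2 difference of -0.28 (standard error 0.25, exact permutation p = 0.5, adjusted p = 0.6), with single differences from -0.96 to 0.20. It was -0.11 without grass-fed replicate 2 or without grain-fed replicate 2. No pair of members was shown to differ in its response, and these ranges leave room for differences of either sign.

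Against bta-miR-122, which was itself higher in grass-fed liver (log2 fold change 1.12, FDR = 0.00417 in edgeR), all 3 members were lower in grass-fed liver. The ratio of bta-miR-148a to bta-miR-122 was 0.544, 0.601 and 0.502 in the grass-fed steers and 0.915, 0.699 and 1.11 in the grain-fed steers. Every grass-fed ratio was below every grain-fed ratio. The difference in log2 ratio, grass-fed minus grain-fed, was -0.70 (standard error 0.21) for bta-miR-148a, -0.77 (standard error 0.32) for bta-miR-148b and -1.04 (standard error 0.26) for bta-miR-152. Without grain-fed replicate 3 the difference of bta-miR-148b was -0.49. The groups did not overlap for any of the members, and each exact two-sided permutation test gave p = 0.1, the smallest that 3 libraries against 3 allow (adjusted p = 0.2 over the 6 ratios). Among the other 455 tested miRNAs the ratio to bta-miR-122 did not overlap between the diets for 55.2%, and its median log2 difference was -1.07, so that the separation was common in these libraries. bta-miR-148a and bta-miR-148b lay above that median, with 323 and 305 miRNAs below them, and bta-miR-152 lay next to it, with 234 below.

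**Figure D4:**
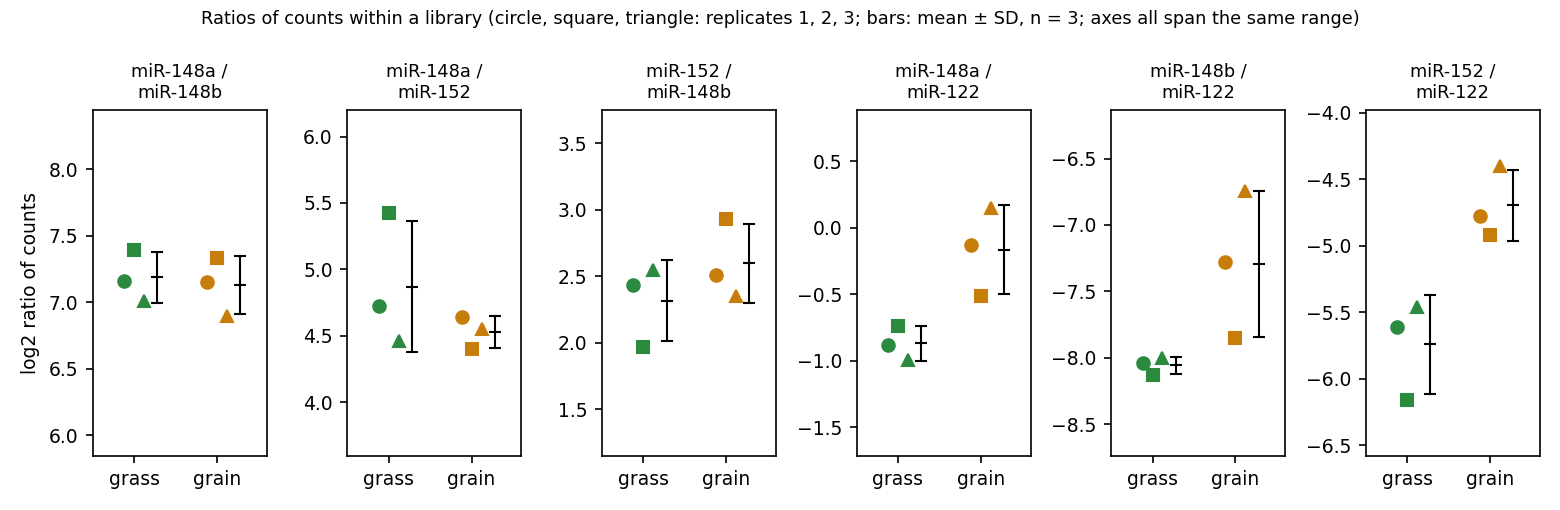
log2 ratio of counts within each library for the 3 pairs of members and for each member to bta-miR-122 (all axes span the same range; bars: mean ± SD, n = 3). The pairs of members overlap between the diets, with grass-fed replicate 2 apart in the bta-miR-148a to bta-miR-152 panel, and the ratios to bta-miR-122 are lower in all 3 grass-fed than in all 3 grain-fed libraries.

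The miRNAs whose levels followed each member most closely were found by the SD over the 6 libraries of their log2 count ratio to it, among 130 other miRNAs with a mean of at least 100 CPM. A small SD means that both kept a near constant ratio, and all of them share the same 6 libraries with their diets and depths. For bta-miR-148a these were bta-miR-532 (SD 0.092), bta-let-7f (0.12) and bta-let-7g (0.13), where the median over all candidates was 0.44. For bta-miR-148b they were bta-miR-99a-5p (0.13), bta-miR-199b (0.15) and bta-miR-2284x (0.16), with a median of 0.40. For bta-miR-152 they were bta-miR-127 (0.088), bta-miR-19b (0.11) and bta-miR-27b (0.11), with a median of 0.36. The ratio of bta-miR-148a to bta-miR-148b had an SD of 0.19, while bta-miR-152 was farther from both, with 0.37 to bta-miR-148a and 0.31 to bta-miR-148b. bta-miR-122 was farther still, with SDs of 0.45, 0.55 and 0.64 to bta-miR-148a, bta-miR-148b and bta-miR-152.

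Of 6 miRNAs known to act on DNA methyltransferase messages, beside bta-miR-148a and bta-miR-152, 6 were tested, 1 was higher in grass-fed liver and 0 were lower at FDR 0.1 in edgeR, where 9.43% of all tested miRNAs were higher and 9.65% lower. The one was bta-miR-185, with 1134 ± 294 CPM in the grass-fed and 661 ± 70.7 CPM in the grain-fed steers (SD, n = 3 each, log2 fold change 0.78, FDR = 0.0407 in edgeR). It was not called with total counts alone (0.41, FDR = 0.415), and 3 of the 6 were called higher with upper quartiles, where 18.0% of all tested miRNAs were. bta-miR-126-3p, the endothelial miRNA, was the most abundant of the list at a mean of 11989 CPM over both groups, followed by bta-miR-29a at 1685 CPM, and their log2 fold changes were 0.12 (FDR = 0.782) and 0.49 (FDR = 0.13, edgeR). The median of the list was 0.44 with TMM, 0.020 with total counts and 0.63 with upper quartiles, against 0.13, -0.29 and 0.31 over all tested miRNAs.

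The labelled tissue was checked with marker miRNAs. Hepatocyte miRNAs were present in every library, with a summed level of 364850 to 546713 CPM in grass-fed and 192641 to 254877 CPM in grain-fed libraries. Of 5 tested, bta-miR-122 and bta-miR-192 were higher in grass-fed liver at FDR 0.1 in edgeR and 0 were lower, and with total counts only bta-miR-122 was called. Most of the sum was bta-miR-122, with means of 345207 and 159277 CPM. The log2 fold changes of bta-miR-194 and bta-miR-215 were below 0, at -0.43 (FDR = 0.300) and -0.14 (FDR = 0.753, edgeR), and that of bta-miR-885 was 0.41 (FDR = 0.453). The summed levels of the other marker lists overlapped between the diets. Over all tested miRNAs, 19.1% were called at FDR 0.1 in edgeR with TMM, 16.2% with total counts and 27.2% with upper quartiles. The lists are short, so that calls near these shares are no result about a cell type. Calls were 0 of 5 for leukocytes, 0 of 3 for erythroid cells, 0 of 2 for endothelium, 1 of 4 tested for skeletal muscle (bta-miR-499, higher, with bta-miR-206 under the filter and bta-miR-208b at 0), 2 of 5 for biliary epithelium (bta-miR-200b higher, bta-miR-141 lower), and 3 of 6 for stellate cells and mesenchyme (bta-miR-145, bta-miR-199a-3p and bta-miR-199a-5p, all higher). With total counts alone bta-miR-499, bta-miR-200b, bta-miR-199a-3p and bta-miR-199a-5p were not called, and bta-miR-223, bta-miR-150 and bta-miR-451 were called lower. With upper quartiles calls were 5 of 6 for stellate cells and mesenchyme and 2 of 4 tested for skeletal muscle, all higher. The other marker lists kept the number of calls they had with TMM. In edgeR 3 of 4 pancreas markers (bta-miR-216a, bta-miR-216b and bta-miR-217) were lower in grass-fed liver, with TMM, total counts and upper quartiles alike. bta-miR-216a and bta-miR-216b passed the count filter only through grain-fed replicates 1 and 2, so that their lower calls were largely set by the filter. All 3 had 0 counts in grain-fed replicate 3, so that these calls describe 2 grain-fed libraries and not the group.

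The pancreas also makes bta-miR-148a, so its markers are given by library. Together bta-miR-216a, bta-miR-216b and bta-miR-217 had 5, 1 and 5 counts in the grass-fed steers and 29, 41 and 0 counts in the grain-fed steers. Grain-fed replicate 3, with 0 of these counts, had a bta-miR-148a share of 16.6%, between the 15.1% and 16.9% of the grain-fed libraries that held them. The summed level of the list, with bta-miR-375, was at most 136 CPM in any library. The part of pancreas RNA in the bta-miR-148a level was not tested.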

How the data were processed

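Small RNA of 18 to 30 nt from liver was sequenced in 6 libraries, 1 per animal. The authors trimmed adapters and discarded reads of low quality (FastQC version 0.11.5 and Trimmomatic version 0.36 are named in the submitters' processing notes), kept reads of 17 to 25 nt, aligned these to ARS-UCD1.2 and counted miRBase miRNAs with miRDeep2 (settings not given in the sources used here). Deposited counts are whole and not normalized, 1 per pair of mature miRNA and precursor. The deposited CPM, which divides them by the total over all pairs, was not used in any test. Each mature miRNA was given its largest count over precursors. The number of miRNA counts, 464875 to 6133960, limits the grain-fed values most. Clean reads, as the paper reports them by group, differed far less between the diets than these counts. Why the miRNA counts differed was not tested.

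miRNAs above 2 counts in at least 2 libraries were scaled by TMM and tested by quasi-likelihood in edgeR version 4.0.16 (newer form of the fit, R version 4.3.3), with FDR 0.1. Standard errors came from the ratio of the log2 fold change to the root of F. Log2 ratios were compared by exact permutation. Alternatives were other scalings and filters, DESeq2 version 1.42.0, limma-voom version 3.58.1, a replicate block and each library left out. Likeness used counts plus 0.5, and spread a prior count of 2. Groups came from the labels, which number 3 replicates per group. That each group had 3 animals comes from the paper's methods. The members, lists and rules were chosen with earlier results of these data known. Named are the members, same-family entries, bta-miR-122 and the 3 closest miRNAs of each member. Up to 4 of the most abundant members of the list on DNA methyltransferases are named as well. Called list members are named too, as are some hepatocyte, skeletal muscle and pancreas markers that were not called or not tested. Another list is not reported here. Sequences were not used here.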

Additional observations from a re-analysis of the deposited data

How the results depend on the processing

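Of the 17 alternatives tried on the fold changes, total counts turned bta-miR-148a to -0.011 and bta-miR-148b to -0.095, and upper-quartile scaling brought both past FDR 0.1 in edgeR, at 0.62 and 0.53. The other 15 left both higher in grass-fed liver and short of FDR 0.1. bta-miR-152, at 0.062, turned to -0.34 with total counts, -0.14 with library sizes without bta-miR-122, -0.0059 with DESeq2 and -0.062 with at least 10 counts in 3 libraries, each short of FDR 0.1. With each library left out in turn the ranges were 0.11 to 0.51 for bta-miR-148a, 0.15 to 0.41 for bta-miR-148b, -0.079 to 0.057 for bta-miR-152 and 49 to 86 for the 87 miRNAs called, the lowest without grain-fed replicate 2. The log2 ratio of bta-miR-148a to bta-miR-148b, at 0.060, ranged from -0.054 to 0.16 and changed sign when grass-fed replicate 2 or grain-fed replicate 3 was left out, and the other ratios kept their sign. The cause was not tested. The older form of the edgeR fit was chosen after seeing the data and gave 0.46, 0.35 and 0.062. Same-numbered libraries did not deviate together (r = -0.054, -0.20 and -0.011), and different-numbered ones ran from -0.21 to 0.23. No pairing by number was seen, but so few values cannot exclude one. With the replicate block the fold changes were 0.40, 0.34 and 0.060 for bta-miR-148a, bta-miR-148b and bta-miR-152, with 82 miRNAs called, and no call of a member changed. Paired sign flips of 3 ratios cannot go below an exact p of 0.25. The grain-fed libraries held the fewest counts, and the lowest count of a member was 596, of bta-miR-148b in grain-fed replicate 2.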
